A study of Mus musculus with 8 samples.

Results

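The transcription factors that direct cells of the intestinal crypt into the secretory lineage were followed in sorted Lgr5-GFP+ cells of mice that carry an oncogenic β-catenin. The group holds 9 genes, Atoh1, Spdef, Gfi1, Bhlha15, Neurog3, Neurod1, Insm1, Nkx2-2 and Sox4, which were taken by symbol from the table of 25485 genes that the authors scaled and were joined by Ensembl identifier to the raw counts of 53801 genes. All 9 were present in both tables. The rule goes by name and uses no measured value, but the members were chosen with earlier results of these data known. The paper on these data had reported Atoh1 and Spdef as increased in Mll1-/- cells.

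Each of the 8 libraries is labelled with 1 mouse. Mice of both groups carried Lgr5-EGFP-IRES-CreERT2, in which the Lgr5 locus drives GFP and a tamoxifen-dependent Cre, and the β-catenin gain-of-function allele (β-cat GOF) that loses exon 3 upon recombination. The 4 control mice (β-cat GOF; Mll1+/-) carried 1 floxed Mll1 allele and the 4 knockout mice (β-cat GOF; Mll1-/-) carried 2, so the controls had also lost a copy of Mll1 and no library without the β-catenin mutation was compared. Mice of 4 to 6 weeks were injected with tamoxifen at 50 mg/kg on 3 days, and 300 sorted intestinal cells per mouse were sequenced 10 days after induction. GFP marks expression from the Lgr5 locus and not recombination, so cells that kept Mll1 can be among those sorted. Levels are given as CPM, which relates every count to a library size that TMM has scaled. The comparison asks how these factors differ between cells labelled Mll1-/- and cells labelled Mll1+/-, and genotypes are named throughout as the libraries are labelled.

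Secretory cells of the intestine arise where Notch signaling is low. Hes1, which Notch induces, represses Atoh1, and a cell that escapes this repression expresses the bHLH factor Atoh1 together with Notch ligands such as Dll1 that hold its neighbors in the absorptive lineage. Downstream of Atoh1, Gfi1 keeps cells on the goblet and Paneth path by repressing Neurog3, Spdef drives the maturation of goblet and Paneth cells, and Bhlha15 (Mist1) shapes the secretory apparatus. Enteroendocrine cells instead pass through a transient stage marked by Neurog3, which turns on Neurod1, Insm1 and Nkx2-2. Sox4, an SRY-related factor active in progenitors, acts in the tuft and enteroendocrine lineages.

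Among the 9 factors, Atoh1, Spdef and Bhlha15 were higher in every Mll1-/- library than in every Mll1+/- library. The mean CPM was 4.76 times as high for Atoh1, 5.35 times for Spdef and 2.69 times for Bhlha15. The enteroendocrine factors Neurog3, Neurod1, Insm1 and Nkx2-2 had lower means in Mll1-/- cells, but most of the summed CPM of each came from a single Mll1+/- mouse. Gfi1 and Sox4 overlapped between genotypes. After adjustment over all 16445 genes tested with edgeR's quasi-likelihood test, 0 of the 8 members tested passed an adjusted p of 0.1, and 14 genes (0.0851%) did over the whole table. At an unadjusted p under 0.05, 3 of the 8 members passed in edgeR against 9.15% of all genes tested. DESeq2 called 2 members, Atoh1 and Spdef, where it called 2.45% of 21094 genes, and limma-voom called 0, where it called 0.626% of the genes tested. Groups that did not overlap, with Mll1-/- higher, were found for 3 of the 8 members tested and for 3.34% of all genes tested. Nkx2-2 was too low for the filter and was not tested. The median log2 fold change of the 8 members was 0.20, beside 0.01 over all genes.

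The promoters of the 3 factors whose groups did not overlap are shown because Atoh1 and Bhlha15 are themselves bHLH proteins, which bind DNA at E-boxes. The sequences run from 250 bases before to 50 bases after the start of transcription in RefSeq on GRCm38.p6, and the last 50 bases lie in the first exon. Capitals mark matches on either strand to the E-box CANNTG, to the N-box CACNAG that Hes repressors bind, and to the Tcf word CTTTGAT.
Atoh1 promoter, chr6:64728875-64729174, plus strand: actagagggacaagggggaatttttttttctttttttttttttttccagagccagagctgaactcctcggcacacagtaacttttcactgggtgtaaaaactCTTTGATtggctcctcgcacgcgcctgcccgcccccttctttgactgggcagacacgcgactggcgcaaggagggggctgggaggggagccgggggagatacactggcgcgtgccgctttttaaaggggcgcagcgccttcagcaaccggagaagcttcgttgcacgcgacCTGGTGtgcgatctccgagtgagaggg
Spdef promoter, chr17:27728902-27729201, minus strand: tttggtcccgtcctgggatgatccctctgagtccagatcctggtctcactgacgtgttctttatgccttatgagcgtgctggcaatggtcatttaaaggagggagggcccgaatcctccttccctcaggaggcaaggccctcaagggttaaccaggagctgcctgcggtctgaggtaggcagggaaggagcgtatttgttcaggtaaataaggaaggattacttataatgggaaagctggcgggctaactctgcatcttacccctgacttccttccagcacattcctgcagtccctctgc
Bhlha15 promoter, chr5:144190036-144190335, plus strand: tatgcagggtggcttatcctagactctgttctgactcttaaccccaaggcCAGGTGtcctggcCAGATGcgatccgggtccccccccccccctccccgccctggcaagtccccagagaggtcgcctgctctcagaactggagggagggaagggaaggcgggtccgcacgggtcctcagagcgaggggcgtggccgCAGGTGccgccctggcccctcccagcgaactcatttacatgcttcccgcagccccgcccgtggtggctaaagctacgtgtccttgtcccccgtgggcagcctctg
The Bhlha15 promoter held 3 E-boxes, of which the first and the last read CAGGTG and the other CAGATG. The windows of Atoh1 and Spdef held 0, as did 27.7% of the 32851 promoters of this length. The Atoh1 window held the Tcf word, which 3.73% of promoters hold, and an N-box read as CTGGTG on this strand, a motif found in 42.5% of promoters. None of these 3 motifs occurred in the Spdef window. A search for CAGCTG and CATCTG, which are themselves E-boxes, found a match to CATCTG on the opposite strand of the Bhlha15 promoter, where 17.2% of promoters hold one, and no match to CAGCTG in these 3 windows. TATAAA, held by 13.6% of promoters, was not among their letters. A promoter entry was matched for 8 of the 9 members. Insm1 was not among the entries matched, and Gfi1 had 2. Among the members not shown, the Nkx2-2 window also held 3 E-boxes. The windows of Neurog3, Neurod1 and Sox4 and each of those of Gfi1 held 1, and 72.3% of all promoters held an E-box.

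Depth was even, with 14468751 to 16847793 counts on genes per library, and a floor of 3 counts corresponded to between 0.162 and 0.241 CPM. Reads carry no molecular identifiers, so this floor covers counting error only. The counts of Kmt2a, the gene of Mll1, were not lower in Mll1-/- libraries (63.5 ± 10.7 against 53.8 ± 7.45 CPM, mean ± SD, n = 4 each, log2 fold change 0.24, edgeR adjusted p = 0.710). They are summed over the whole gene, so they do not report on the floxed exons alone. The 12 summed stem cell markers lay between 11056 and 17466 CPM in Mll1-/- libraries and between 23295 and 27655 CPM in Mll1+/- libraries. Most of this sum was Olfm4 (12160 against 20741 CPM on average), whereas Lgr5 stood at 261 ± 19.9 against 271 ± 41.0 CPM and Axin2 was higher in every Mll1-/- library (226 against 167 CPM, edgeR adjusted p = 0.384). Of the 12 markers, 9 were lower and 3 higher in Mll1-/- cells, and edgeR called 0. Olfm4, Slc12a2 (1418 against 2596 CPM) and Gkn3 (183 against 261 CPM) were lower in every Mll1-/- library than in any control. DESeq2 called 2 of the list, Olfm4 (adjusted p = 0.0165) and Slc12a2 (0.0013), and limma-voom called the same 2 (0.0571 and 0.0597). The Mll1-/- library of mouse J_7135 stood apart. It held both Xist (208 CPM) and Y-linked transcripts (165 CPM), whereas each other library held mainly one of these kinds, and its highest rank correlation with another library was 0.909 against at least 0.947 for the other 7. Whether it holds cells of more than 1 mouse was not tested, and it counts as 1 of the 4 Mll1-/- libraries. The file headers number the libraries in 2 separate ranges, each with 2 libraries of either genotype. In the first range (J_7075, J_7079, J_7096 and J_7100) the Mll1-/- libraries held Y-linked transcripts and the Mll1+/- libraries held Xist, so sex and genotype cannot be told apart there. Results of each factor are therefore given with and without J_7135 and within each range.

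**Figure D1:**
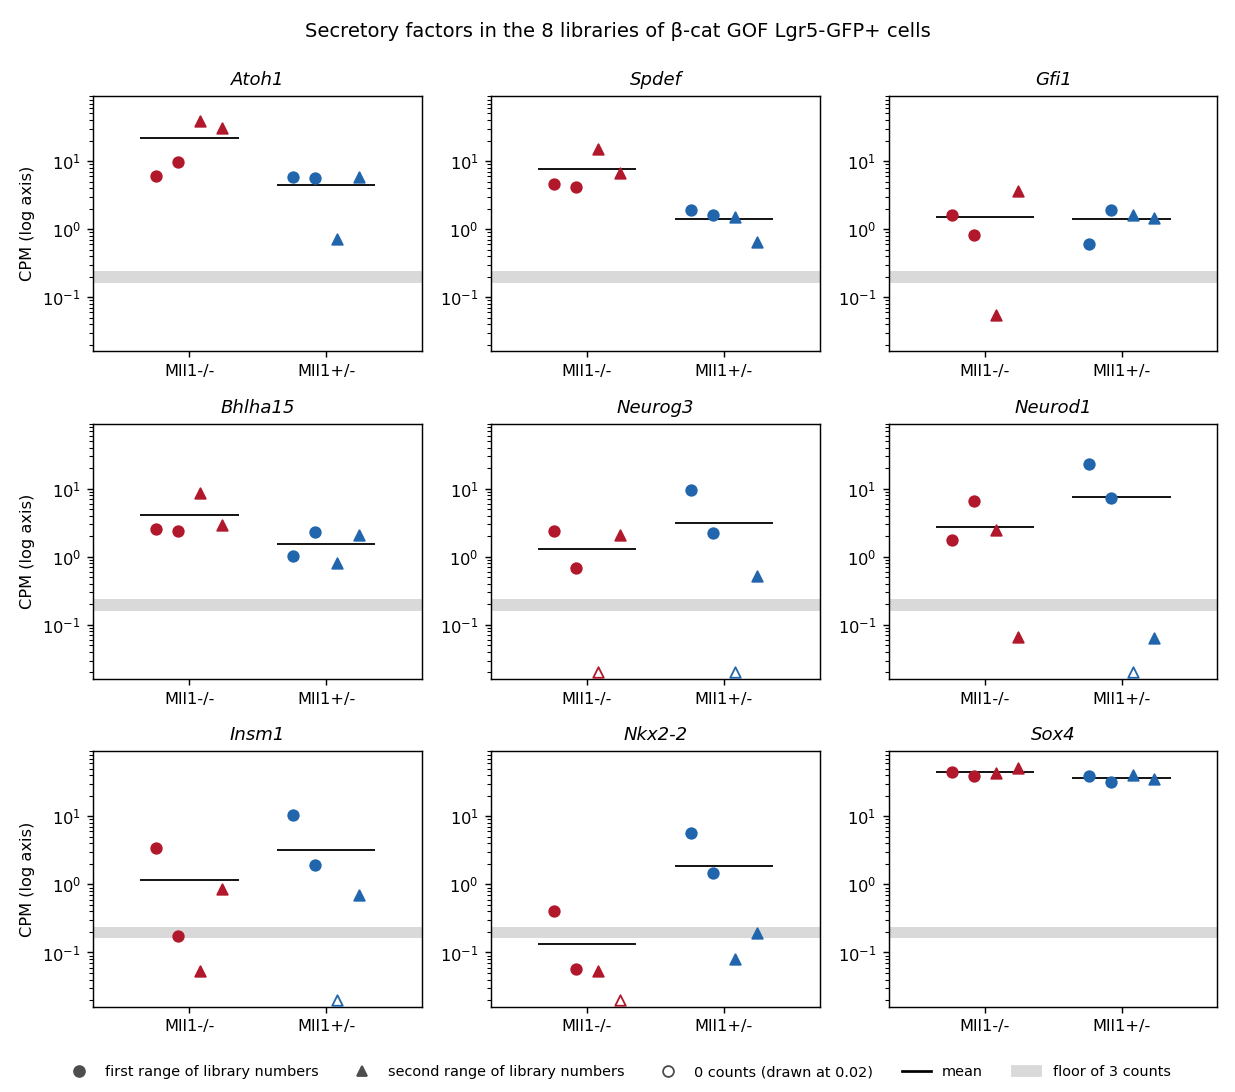
CPM (log axis) of each of the 9 factors in the 4 Mll1-/- (red) and the 4 Mll1+/- (blue) libraries, with circles for the first and triangles for the second range of library numbers, black lines for the mean, a gray band for the floor of 3 counts (0.162 to 0.241 CPM) and open symbols for libraries at 0 counts, drawn at 0.02. The red and blue points are separate for Atoh1, Spdef and Bhlha15 and overlap for the other 6 factors.

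Atoh1 (chr6:64729125-64731245, mm10) is the master regulator of the secretory lineage. It reached 6.02, 9.56, 39.3 and 31.1 CPM in the Mll1-/- mice J_7075, J_7096, J_7135 and J_7136. In the Mll1+/- mice J_7079, J_7100, J_7134 and J_7139 it reached 5.92, 5.55, 0.722 and 5.88 CPM. The genotypes did not overlap, but the lowest Mll1-/- library, at 102 counts, lay next to the highest Mll1+/- library, at 99 counts. The means were 21.5 ± 16.2 and 4.52 ± 2.54 CPM (SD, n = 4). The log2 fold change of 2.24 (SE 0.73) had an adjusted p of 0.429 in edgeR (unadjusted p = 0.0126), of 0.0465 in DESeq2 and of 0.519 in limma-voom. An exact permutation of the 70 assignments gave a two-sided p of 0.0286, the smallest that 4 against 4 libraries can give. Groups that do not overlap always give this value, so for Atoh1, Spdef and Bhlha15 it only restates the lack of overlap.

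The Atoh1 difference was unequal in the 2 ranges of library numbers. Mean log2 CPM differed by 0.40 in the first range and by 3.96 in the second, where J_7135 and J_7136 are high and J_7134 is low. The test of this difference, an interaction of genotype and range in edgeR, gave 2.96 on the log2 scale (unadjusted p = 0.0292, adjusted p = 0.701), and 6.86% of all genes had an unadjusted p under 0.05 in it. Without J_7135 the Mll1-/- mean was 15.6 ± 13.6 CPM (n = 3) and the log2 fold change was 1.77 (edgeR adjusted p = 0.468). Without J_7134 it was 1.89 (edgeR adjusted p = 0.591).

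Spdef (chr17:27714352-27728951), an Ets factor of goblet and Paneth cell maturation, gave the smallest p of the members. It stood at 4.66, 4.11, 15.1 and 6.63 CPM in the Mll1-/- mice and at 1.91, 1.62, 1.52 and 0.646 CPM in the Mll1+/- mice, in the order of mice given for Atoh1. The lowest Mll1-/- value, 4.11 CPM, lay well above the highest Mll1+/- value, 1.91 CPM. The means were 7.62 ± 5.09 and 1.43 ± 0.546 CPM, a log2 fold change of 2.41 (SE 0.53). The adjusted p was 0.205 in edgeR (unadjusted p = 0.0013), 0.00164 in DESeq2 and 0.171 in limma-voom, and the exact permutation p was 0.0286. The difference in mean log2 CPM was 1.26 in the first range and 3.17 in the second, with an interaction of 2.02 (edgeR unadjusted p = 0.0483, adjusted p = 0.720). Without J_7135, the highest library, the Mll1-/- mean was 5.14 ± 1.33 CPM, 3.60 times the control mean, and the log2 fold change was 1.84 (edgeR adjusted p = 0.174).

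Bhlha15 (chr5:144190286-144194441), a bHLH factor of cells with a large secretory apparatus, stood at 2.6, 2.43, 8.71 and 2.96 CPM in the Mll1-/- mice. In the Mll1+/- mice it stood at 1.02, 2.32, 0.802 and 2.07 CPM. The groups did not overlap, although J_7096 with 2.43 CPM and the control J_7100 with 2.32 CPM were nearly level, and J_7135 was 2.95 times the next library. The means were 4.17 ± 3.03 and 1.55 ± 0.753 CPM, a log2 fold change of 1.42 (SE 0.57) with an edgeR adjusted p of 0.511 (unadjusted p = 0.0341), a DESeq2 adjusted p of 0.262 and an exact permutation p of 0.0286. Without J_7135 the means were 2.66 ± 0.267 and 1.55 ± 0.753 CPM and the log2 fold change was 0.77 (edgeR adjusted p = 0.719). Mean log2 CPM differed by 0.66 in the first range and by 1.87 in the second. Leaving out a library cannot make separate groups overlap, so the 3 members that did not overlap necessarily stay apart without J_7135. In that set 5.34% of 17150 genes did not overlap and were higher in Mll1-/- cells.

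Gfi1 (chr5:107716657-107726036), the zinc finger repressor that restrains Neurog3, overlapped between genotypes and varied widely among the Mll1-/- libraries. It stood at 1.59, 0.811, 0.0541 and 3.61 CPM in the Mll1-/- mice and at 0.598, 1.9, 1.6 and 1.48 CPM in the Mll1+/- mice. The Mll1-/- libraries held both the lowest value, 1 count in J_7135, and the highest, 55 counts in J_7136. The means were 1.52 ± 1.53 and 1.40 ± 0.560 CPM, with a log2 fold change of 0.12 (SE 0.90, edgeR adjusted p = 0.981) and an exact permutation p of 0.771. The difference in mean log2 CPM was -0.48, opposite in sign to the fitted change. J_7135 thus held the highest Atoh1, Spdef and Bhlha15 and the lowest Gfi1 of all 8 libraries, and it was the highest library for 24.4% of the genes tested. Without it the log2 fold change of Gfi1 was 0.52, and without J_7136 it was -0.76. Mean log2 CPM differed by 0.07 in the first range and by -1.02 in the second.

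Neurog3 (chr10:62133090-62134763), the bHLH factor that commits progenitors to the enteroendocrine fate, stood at 2.36, 0.695, 0 and 2.10 CPM in the Mll1-/- mice. In the Mll1+/- mice it stood at 9.63, 2.25, 0 and 0.516 CPM. It was highest in J_7079 and had 0 counts in a library of each genotype. The means were 1.29 ± 1.13 and 3.10 ± 4.46 CPM, a log2 fold change of -1.27 (SE 1.42, edgeR adjusted p = 0.838) with an exact permutation p of 0.886. Without J_7079 the control mean was 0.922 ± 1.18 CPM (n = 3) and the log2 fold change was 0.47, and without J_7135 it was -0.86. Mean log2 CPM differed by -1.75 in the first range and by 0.90 in the second.

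Neurod1 (chr2:79452521-79456751), the bHLH factor downstream of Neurog3, stood at 1.77, 6.55, 2.49 and 0.0657 CPM in the Mll1-/- mice. In the Mll1+/- mice it stood at 23.0, 7.31, 0 and 0.0646 CPM. The values spanned 0 to 384 counts, with all libraries of the first range of library numbers at 30 counts or more and 3 of the 4 libraries of the second range at 1 count or fewer. The means were 2.72 ± 2.75 and 7.59 ± 10.8 CPM, a log2 fold change of -1.48 (SE 1.53, edgeR adjusted p = 0.821), while mean log2 CPM differed by 0.15 in the opposite direction (exact permutation p = 0.914). It was lower in Mll1-/- cells in the first range (by -1.88 on the log2 scale) and higher in the second (by 2.19), with an interaction of 6.78 in edgeR (unadjusted p = 0.0230, adjusted p = 0.688). With range as an added term the log2 fold change was 0.32, without J_7079 it was 0.14 and without J_7135 it was -1.44.

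Insm1 (chr2:146221921-146225020), a zinc finger repressor that acts in cells differentiating into endocrine cells, stood at 3.48, 0.174, 0.0541 and 0.854 CPM in the Mll1-/- mice. In the Mll1+/- mice it stood at 10.4, 1.90, 0 and 0.710 CPM. It was highest in J_7079 and lay at 3 counts or fewer in 3 libraries. The means were 1.14 ± 1.6 and 3.24 ± 4.81 CPM, a log2 fold change of -1.51 (SE 1.45, edgeR adjusted p = 0.802) with an exact permutation p of 0.6. Without J_7079 the log2 fold change was 0.38, and without J_7075, the highest Mll1-/- library, it was -3.18. Without J_7135 it was -1.11. Mean log2 CPM differed by -2.15 in the first range and by 0.37 in the second, so the sign differed between ranges as it did for Neurog3 and Neurod1.

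Nkx2-2 (chr2:147177546-147194243), a homeobox factor of enteroendocrine subtypes, held 7, 1, 1 and 0 counts in the Mll1-/- mice and 96, 21, 1 and 3 counts in the Mll1+/- mice. In CPM this was 0.131 ± 0.190 against 1.87 ± 2.66. Only J_7075, J_7079 and J_7100 lay above 3 counts, all from the first range of library numbers. The exact permutation p was 0.171. With no filter on low counts the log2 fold change was -3.76 (edgeR adjusted p = 0.569), and DESeq2 gave -3.83 (adjusted p = 0.162). Without J_7079 the control mean was 0.583 ± 0.775 CPM, and without J_7135 the Mll1-/- mean was 0.157 ± 0.224 CPM. Mean log2 CPM differed by -3.28 in the first range and by -0.77 in the second.

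J_7079 alone held 54.9% of the summed CPM of Neurog3, 55.7% of Neurod1, 59.1% of Insm1 and 71.6% of Nkx2-2, and exceeded the next library by 2.97 to 4.08 times. It was the highest library for 4 of the 9 members but for 9.1% of the genes tested. The other enteroendocrine transcription factors showed the same library in part. Among 19 with counts of 20 listed, J_7079 was highest for 6, against 10.1% of the 40036 genes with counts. Rfx6, a winged-helix factor of endocrine progenitors, reached 11.2 CPM there and at most 2.17 CPM elsewhere, and Myt1, a zinc finger factor of endocrine progenitors, reached 6.58 CPM there and at most 2.66 CPM elsewhere. Of the 20 markers of mature enteroendocrine cells, 3 were highest in J_7079, among them Vwa5b2 at 4.67 CPM. Chga, the granule protein chromogranin A, stood at 0.778 CPM in J_7079 and at 8.02 CPM in J_7100, and its relative Chgb stood at 7.48 and 29.7 CPM. The 20 enteroendocrine markers together summed to 80.2 CPM in J_7079, of which Pcsk1 held 28.9 CPM and Fam183b 23.0 CPM. This was the lowest sum of the Mll1+/- libraries, where the range was 80.2 to 139 CPM. Reg4, also in the sum, stood at 6.70 CPM in J_7079 and at 26.8, 28.8 and 12.2 CPM in J_7100, J_7134 and J_7139. The Mll1-/- range of the sum was 46.4 to 81.9 CPM. Whether a few enteroendocrine progenitors among the 300 cells account for these levels was not tested, and fewer cells of a type and less RNA per cell cannot be told apart in such libraries.

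**Figure D2:**
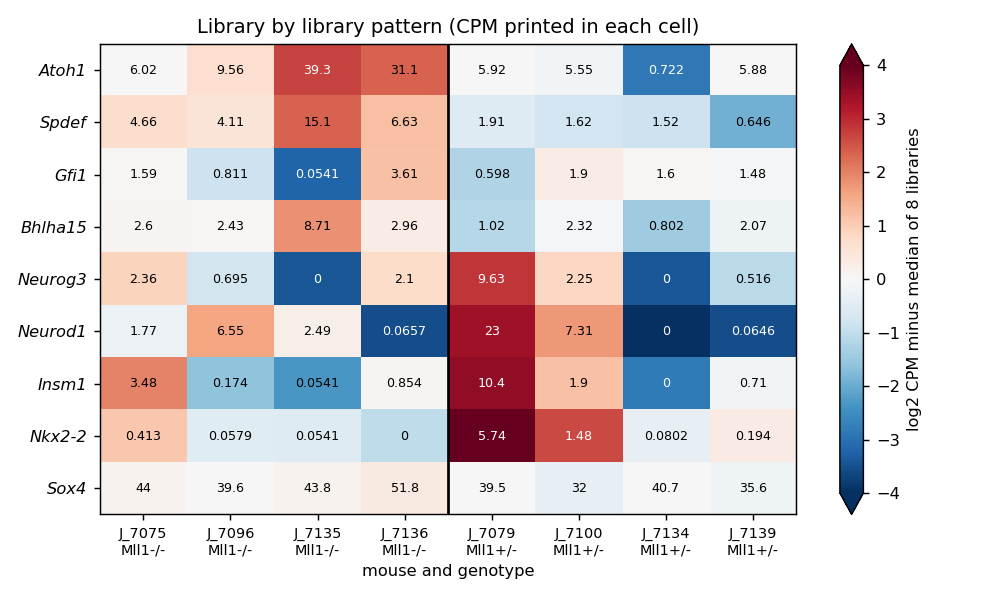
Each row is a factor and each column a mouse, colored by log2 CPM minus the median of the 8 libraries for that factor (colors end at -4 and 4), with the CPM printed in each cell and a line between genotypes. Atoh1, Spdef and Bhlha15 are highest in J_7135, where Gfi1 is lowest, and the 4 enteroendocrine factors are highest in the control J_7079 and low in J_7134.

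Sox4 (chr13:28948919-28953713) was the most evenly expressed of the 9 factors. It stood at 44.0, 39.6, 43.8 and 51.8 CPM in the Mll1-/- mice and at 39.5, 32.0, 40.7 and 35.6 CPM in the Mll1+/- mice. The groups overlapped, since J_7096 lay below the control J_7134. The means were 44.8 ± 5.09 and 36.9 ± 3.95 CPM, a log2 fold change of 0.28 (SE 0.16, edgeR adjusted p = 0.635) with an exact permutation p of 0.0571. It was alike in both ranges, at 0.23 and 0.32 in mean log2 CPM, and between 0.20 and 0.33 as a log2 fold change with any library left out (0.29 without J_7135). The exons of Sox4 share 54.6% of their bases with Gm26735 on the opposite strand. Counting did not use the strand and left out reads on more than 1 gene, so the level of Sox4 is a lower estimate.

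Exons of other genes also cover 16.3% of the bases of Neurog3 (Fam241b), 13% of Neurod1 (Cerkl and Gm26755), 9.67% of Nkx2-2 (Nkx2-2os) and 3.17% of Gfi1 (A430072P03Rik). Atoh1, Spdef, Bhlha15 and Insm1 share none.

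Levels of different genes were compared as RPKM, which divides CPM by the exonic length in kilobases. Reads on shared exons are not counted, so genes with shared bases, Sox4 above all, are understated on this scale. In Mll1+/- cells the order of mean RPKM was Sox4 (7.70 ± 0.823), Neurod1 (2.78 ± 3.96), Atoh1 (2.13 ± 1.2), Neurog3 (1.85 ± 2.66), Insm1 (1.05 ± 1.55), Nkx2-2 (0.652 ± 0.924), Spdef (0.651 ± 0.249), Bhlha15 (0.444 ± 0.216) and Gfi1 (0.438 ± 0.176). The ranges of every pair of neighbors in this order overlapped. In Mll1-/- cells Atoh1 stood first at 10.1 ± 7.65 RPKM, ahead of Sox4 at 9.35 ± 1.06, and the 2 overlapped. Over the 2179 bases of Sox4 that no other gene covers, Sox4 stood at 20.6 ± 2.34 RPKM and came before Atoh1. Spdef followed at 3.48 ± 2.33 and lay below Sox4 with no overlap. Bhlha15 (1.19 ± 0.867), Neurod1 (0.996 ± 1.01), Neurog3 (0.770 ± 0.674), Gfi1 (0.476 ± 0.480), Insm1 (0.368 ± 0.516) and Nkx2-2 (0.0457 ± 0.0660) came next, each overlapping its neighbor. Spdef was the seventh of the 9 in control cells and the third in Mll1-/- cells. Without J_7079 it was the fourth in control cells, at 0.577 RPKM, behind Sox4, Atoh1 and Neurod1.

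**Figure D3:**
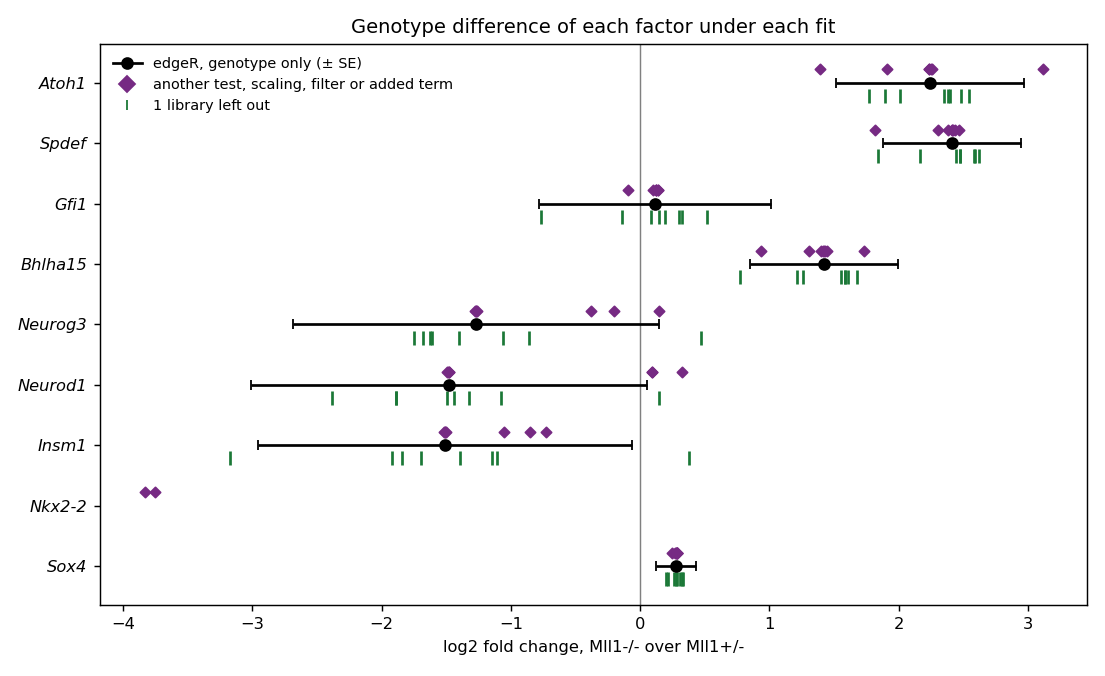
Log2 fold change of Mll1-/- over Mll1+/- for each factor from edgeR with genotype as the only term (black, ± SE), from another test, scaling, filter or added term (purple diamonds) and with 1 library left out (green ticks). Every value of Atoh1, Spdef, Bhlha15 and Sox4 lies above 0, those of Gfi1, Neurog3, Neurod1 and Insm1 lie on either side, and Nkx2-2 has values only from the 2 fits without the count filter.

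The partners of the bHLH members are the E proteins, with which Atoh1, Neurog3 and Neurod1 bind DNA as dimers, and the Id proteins, which sequester E proteins. Of these 7 genes, 0 passed the adjusted threshold in edgeR and 3 had an unadjusted p under 0.05, all with Mll1-/- higher (5.4% of all genes tested). DESeq2 called 2 and limma-voom 1, and the median was 0.03. Tcf4, an E protein, stood at 97.6, 62.4, 39.8 and 61.3 CPM in the Mll1-/- mice and at 33.7, 35.5, 21.8 and 35.4 CPM in the Mll1+/- mice without overlap (log2 fold change 1.05, edgeR adjusted p = 0.299, DESeq2 0.0258, limma-voom 0.0995). Id4 did not overlap either, at 4.09 ± 2.12 against 0.846 ± 0.569 CPM (2.26, edgeR adjusted p = 0.321, DESeq2 0.0185). Tcf3 had a log2 fold change of 0.46 (edgeR adjusted p = 0.506), and the abundant Id1, Id2 and Id3 lay between -0.23 and 0.03. The E protein Tcf12 had a lower mean in Mll1-/- cells, at 152 ± 55.8 against 184 ± 12.2 CPM (-0.28, edgeR adjusted p = 0.768).

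Gfi1 and Insm1 repress through a SNAG domain that recruits Kdm1a and its partners. Of 10 such corepressor genes, 0 passed the adjusted threshold in edgeR, DESeq2 or limma-voom, and 1, Hmg20b, had an unadjusted p under 0.05 in edgeR (log2 fold change 0.87, adjusted p = 0.546). The median was 0.13, and Kdm1a stood at 72.6 ± 5.22 against 63.2 ± 12.3 CPM.

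Of the 20 genes of the Notch signal and its targets, 13 were tested, 0 passed the adjusted threshold in edgeR, DESeq2 or limma-voom, 1 had an unadjusted p under 0.05 in edgeR and the median was 0.18, with 8 higher and 5 lower in Mll1-/- cells. Hes1, the repressor of Atoh1, stood at 710 ± 127 against 595 ± 47.5 CPM (log2 fold change 0.25, adjusted p = 0.616). The ligand Dll1 stood at 16.3 ± 6.07 against 14.3 ± 5.31 CPM and Dll4 at 3.99 ± 0.609 against 4.36 ± 2.11 CPM. Hes6, a relative of Hes1 that opposes it, was that gene (log2 fold change 1.15, edgeR adjusted p = 0.482) and was highest in J_7135, at 198 CPM. Of 7 regulators of Atoh1 transcription or protein, 6 were tested and 0 passed an adjusted p of 0.1 in edgeR, DESeq2 or limma-voom or an unadjusted p of 0.05 in edgeR. Huwe1, the ubiquitin ligase that destabilizes Atoh1, stood at 166 ± 13.5 against 174 ± 13.9 CPM. Cbfa2t3 had the smallest p of this list (log2 fold change 0.88, edgeR adjusted p = 0.689), and Prdm1 had a log2 fold change of -1.27 (edgeR adjusted p = 0.697).

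Of 12 other goblet and Paneth transcription factors, 1 passed the adjusted threshold in edgeR (4 at an unadjusted p under 0.05), 2 passed in DESeq2 and 1 in limma-voom. Foxa1, a forkhead factor that acts in goblet and enteroendocrine differentiation, fell in Mll1-/- cells, from 36.0 ± 5.31 to 9.07 ± 2.97 CPM (log2 fold change -1.99, SE 0.25, edgeR adjusted p = 0.0918). It stood at 13.4, 8.57, 6.81 and 7.49 CPM in the Mll1-/- mice and at 32.3, 43.7, 32.6 and 35.3 CPM in the Mll1+/- mice, so the groups were far apart. It kept this side of the threshold without J_7075 or J_7135 and missed it without any of the other 6 libraries (edgeR adjusted p up to 0.289, log2 fold change between -2.24 and -1.87). It also missed it with the range of library numbers (-2.02, edgeR adjusted p = 0.113) or Xist over Y-linked counts (-2.06, edgeR adjusted p = 0.195) as an added term. Klf4, a zinc finger factor of goblet cells, was higher in every Mll1-/- library, at 29.7 ± 6.70 against 13 ± 4.45 CPM (1.19, edgeR adjusted p = 0.243, DESeq2 adjusted p = 0.00608). The same held for Creb3l1, a membrane-bound factor of secretory capacity, at 8.09 ± 1.50 against 2.62 ± 2.04 CPM (1.62, edgeR adjusted p = 0.481). The list as a whole had 5 genes higher and 7 lower in Mll1-/- cells and a median of -0.12. Of the 20 other enteroendocrine factors, 7 were tested, 0 passed the adjusted threshold in edgeR, DESeq2 or limma-voom, and the median was 0.08. Prox1, a homeobox factor, was the 1 gene with an unadjusted p under 0.05 in edgeR, at 96.5 ± 53.5 against 41.7 ± 14.4 CPM (1.21, edgeR adjusted p = 0.474). Of 7 tuft factors, among them Sox4, 3 were tested and 0 passed the adjusted threshold in edgeR or limma-voom. Runx1, the 1 gene with an unadjusted p under 0.05 in edgeR (-1.02, adjusted p = 0.371), was called by DESeq2 (adjusted p = 0.0759), and Pou2f3, which specifies tuft cells, stood at 1.45 ± 1.26 against 1.13 ± 1.02 CPM.

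**Figure D4:**
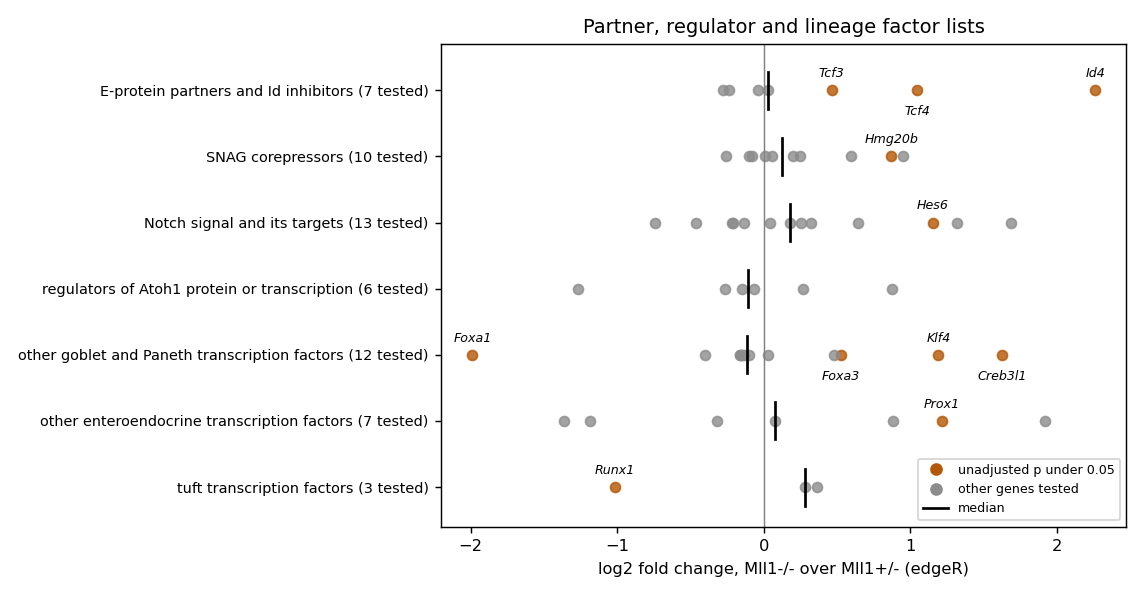
EdgeR log2 fold changes (Mll1-/- over Mll1+/-) of the genes tested in 7 lists of partners, regulators and lineage factors, with genes at an unadjusted p under 0.05 in orange and named, other genes in gray and a black line at the median of each list. The list medians lie between -0.12 and 0.28, and Foxa1 at -1.99 is the one gene that passed the adjusted threshold.

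Markers of the mature cell types were read beside the factors. Over all genes tested in edgeR, an unadjusted p under 0.05 was reached by 5.4% with Mll1-/- higher and by 3.75% with Mll1-/- lower. Groups did not overlap for 3.34% with Mll1-/- higher and for 2.94% with Mll1-/- lower. The adjusted threshold was passed by 0.0851% of genes in edgeR, 2.45% in DESeq2 and 0.626% in limma-voom. The 14 goblet cell markers summed to 752 to 1354 CPM in Mll1-/- libraries and to 679 to 898 CPM in Mll1+/- libraries. Of the 12 tested, 0 passed the adjusted threshold in edgeR and 5 an unadjusted p of 0.05, 4 with Mll1-/- higher and 1 with Mll1-/- lower. Among the 12, 8 were higher and 4 lower in Mll1-/- cells and the median was 0.57. DESeq2 called 5 of the list and limma-voom 1. The DESeq2 calls were Agr2, Guca2a, Muc2 and Tff3, which were higher in Mll1-/- cells, and Ramp1, which was lower. Ramp1 stood at 0.0425 against 1.05 CPM without overlap (DESeq2 log2 fold change -4.57, adjusted p = 0.0136) and was not tested in edgeR. Muc2, the major intestinal mucin, did not overlap between genotypes (41.2 against 10.7 CPM, log2 fold change 1.94, edgeR adjusted p = 0.202, DESeq2 0.00111) and was highest in J_7135, at 81.8 CPM, where Spdef also was. Guca2a, the precursor of guanylin, had the smallest p of the list and was the limma-voom call (73.0 against 19.7 CPM, 1.89, edgeR adjusted p = 0.165). Zg16, a granule protein of goblet cells, was lower in Mll1-/- cells (0.890 against 14.6 CPM, -4.03, edgeR adjusted p = 0.385). The 11 Paneth markers summed to 1842 to 5519 CPM in Mll1-/- and to 3593 to 6132 CPM in Mll1+/- libraries. Most of this sum was Defa24 (1041 against 2524 CPM on average) and Pla2g2a, which ranged from 106 to 2513 CPM. The highest Mll1-/- sum, in J_7136, held 2513 CPM of Pla2g2a. Of the 11 markers, 9 were lower in Mll1-/- cells. EdgeR called 0 of them, with 6 lower and 1 higher at an unadjusted p under 0.05. DESeq2 called 5 lower and 1 higher, and limma-voom called 1 higher. The gene that was higher each time was Mmp7, a protease of Paneth cells, at 304 ± 89.7 against 148 ± 11.7 CPM (log2 fold change 1.04, edgeR adjusted p = 0.154). Of 8 enteroendocrine markers tested, 1 (Fam183b) passed the threshold, and it fell in Mll1-/- cells (-1.54, edgeR adjusted p = 0.0918), though it missed the threshold without any one library but J_7135 and with the range (edgeR adjusted p = 0.113) or the Xist term (edgeR adjusted p = 0.195). Of the 8, 7 were lower in Mll1-/- cells, 3 of them at an unadjusted p under 0.05 in edgeR, and the median was -1.32. DESeq2 called 3 of the list and limma-voom 1. Chgb (0.367 against 12.1 CPM, -4.98, edgeR adjusted p = 0.139, DESeq2 2.1e-07) and Chga (0.0406 against 2.63 CPM, -5.70, edgeR adjusted p = 0.245) were lower in every Mll1-/- library than in any control. The 10 enterocyte markers summed to 392 to 696 and 643 to 732 CPM, and 8 of the 8 tested lay below 0. The 9 tuft markers summed to 3.52 to 8.05 CPM in Mll1-/- and to 1.41 to 4.65 CPM in Mll1+/- libraries, with 1 of them at 0 throughout. The 10 immune markers summed to 102 to 233 CPM, most of it Cd74, while Ptprc, which encodes CD45, stayed under 1 CPM. The 8 stromal markers summed to 5.41 to 8.87 CPM.

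The genes whose log2 CPM followed a factor most closely across the 8 libraries were looked up among 10864 genes with a mean of at least 5 CPM, as a description over points that share library, depth and genotype. For Atoh1 they were Wdr34 (Pearson r = 0.986), Mtor (0.972), Atxn1 (0.971), Aacs (0.969) and Tmem201 (0.966). For Spdef they were Flna (0.987), Ephb3 (0.984), Kcnn4 (0.982), 2700049A03Rik (0.977) and Muc2 (0.975). For Gfi1 they were Xpo4 (0.977), Sumf1 (0.975), Tmem39a (0.974), Snora78 (0.974) and Guca2b (0.967). Among the members, r was 0.843 between Atoh1 and Bhlha15, 0.747 between Spdef and Bhlha15, 0.724 between Atoh1 and Spdef and -0.338 between Atoh1 and Gfi1. Atoh1, Spdef and Bhlha15 all have their highest value in J_7135 and their second highest in J_7136.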

How the data were processed

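Lgr5-GFP+ cells of 8 mice (4 per genotype, 300 cells each) were sequenced with the Smart-seq2 protocol. The authors aligned reads to mm10 with GSNAP, counted uniquely mapped reads on genes of Ensembl release 92 with featureCounts (1.6.3) without strand, and deposited raw counts per gene. The authors also deposited a signal table of 25485 genes (counts over a size factor of 0.811 to 1.17 per library), which was used only to find the genes. Gene lengths came from the deposited count table. Counts were filtered (filterByExpr, at least 10 counts, 15 in total), scaled with TMM and tested in edgeR 4.0.16 (robust quasi-likelihood, genotype only, R 4.3.3), with Benjamini-Hochberg adjustment over 16445 genes and a threshold of 0.1. SE is the log2 fold change over the square root of F. The common biological coefficient of variation was 0.435. Spike-in rows (92) were left out. Log2 CPM used a prior count of 2. Tests were two-sided, and the code was tested on simulated data.

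Alternatives were DESeq2 1.42.0, limma-voom (limma 3.58.1) with quality weights, DESeq2 size factors, upper quartile scaling, other filters, range of library numbers or Xist over Y-linked counts as a term, a prior count of 0.5 and each library left out. RPKM over unshared bases, means without J_7135 or J_7079 and overlap counts without J_7135 were chosen after seeing the data. Members and lists were chosen with earlier results of these data known. Named were all members, Kmt2a, and of each list of partners, regulators and transcription factors the genes with the smallest p and others by known role. The marker genes, Rfx6 and Myt1 were chosen after their values were seen. Promoters came from RefSeq (GRCm38.p6). Figures were drawn with matplotlib 3.10.9.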

Additional observations from a re-analysis of the deposited data

Results flagged for a closer look

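In groups of 4 libraries, a value was set apart where its gap to the nearest other library took more of the range of the group than the critical value of Dixon's criterion allows. This was applied to the CPM of 18 groups. Chance alone gives about 1 in 20 for normally distributed values, and CPM near the floor need not be so distributed. It picked out Atoh1 in the Mll1+/- mouse J_7134, at 0.722 CPM where the other 3 libraries lay between 5.55 and 5.92 CPM. It picked out Bhlha15 in the Mll1-/- mouse J_7135, at 8.71 CPM where the others lay between 2.43 and 2.96 CPM. It also picked out Nkx2-2 in the Mll1-/- mouse J_7075, at 0.413 CPM (7 counts) where the others lay between 0 and 0.0579 CPM.

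Neurod1 was lower in both Mll1-/- libraries than in both controls in the first range of library numbers and higher in the second. Its mean log2 CPM was higher in Mll1-/- cells by 2.19 in the second range and lower in the first (-1.88). In the second range the lower Mll1-/- library and the higher Mll1+/- library held 1 count each. The interaction of genotype and range was 6.78 in edgeR (unadjusted p = 0.0230, adjusted p = 0.688), so the difference did not pass the threshold after adjustment. The mean difference also changed sign between the ranges for Neurog3 (-1.75 and 0.90), Insm1 (-2.15 and 0.37) and Gfi1 (0.07 and -1.02).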

How the results depend on the processing

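The log2 fold changes of Atoh1, Spdef, Bhlha15 and Sox4 were above 0 under every alternative that gave a value, and they lay between 1.77 and 2.54, 1.84 and 2.62, 0.77 and 1.68, and 0.20 and 0.33 with each library left out. Atoh1 was 1.39 in limma-voom and 3.11 with the Xist term. For Atoh1 and Spdef only DESeq2 passed the threshold (2.26, adjusted p = 0.0465, and 2.44, adjusted p = 0.00164). Their adjusted p ranged up to 0.519 and 0.284 over the other tests, scalings, filters and added terms. Gfi1 lay between -0.76 (without J_7136) and 0.52 with each library left out, was -0.14 without J_7079 and was -0.10 in limma-voom. With each library left out Neurog3 lay between -1.75 and 0.47, Neurod1 between -2.38 and 0.14, and Insm1 between -3.18 and 0.38, and in all 3 the highest value was the one without J_7079. Neurog3 was 0.15 with the Xist term, and Neurod1 was 0.32 with the range term, 0.092 with the Xist term and 0.093 in limma-voom.

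The 14 genes called over the whole table became 8 with upper quartile scaling, 47 with no filter, 34 with at least 10 counts in every library, 517 with DESeq2 and 103 with limma-voom. With the range or the Xist term edgeR called 0 genes, with 1642 and 1600 at an unadjusted p under 0.05. With each library left out it called 0 to 45 genes (45 without J_7135, 2 without J_7075 and 0 without any of the other 6, with 1189 to 1847 at an unadjusted p under 0.05). Apart from the construction of each fit, the cause was not tested. A prior count of 0.5 left every permutation p of the members on its side of 0.05. No paired analysis was made because no label pairs Mll1-/- mice with Mll1+/- mice. At 4 against 4 libraries the permutation p cannot go below 0.0286, and members at 3 counts or fewer, as Nkx2-2 in 5 of 8 libraries, cannot be told from 0.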
